A study of Rattus norvegicus with 22 samples.

Results

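The 12 arrays described here measured the response of the rat thoracic spinal cord to a contusion when every animal had received tamoxifen (TMX), a selective modulator of the estrogen receptor. The 6 SCI/TMX+ and the 6 Sham/TMX+ arrays were taken by their labels out of the 22 arrays of the series, and no measured value entered the choice. All rats were adult Long-Evans males. In the SCI/TMX+ group (rats 7b to 12b), the cord was exposed by laminectomy at T9 and struck by a rod of 10 g that dropped from 50 mm. In the Sham/TMX+ group (rats 19d to 24d), soft tissue was opened and no vertebra was removed, so that the comparison holds the laminectomy together with the contusion. Both groups received TMX at 5 mg/kg in the peritoneum 30 min after surgery, and a cord segment of 20 mm was taken at 24 h, 1 array per rat. The other 10 arrays, from SCI/TMX- and Sham/TMX- rats that received the vehicle of ethyl alcohol and corn oil instead, were used for the shared estimate of the spread and for the test of whether the response differed with TMX.

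A contusion tears vessels and cells within moments, and over the following hours blood, dying cells and the reactive glia release chemokines that call in neutrophils and then monocytes. Astrocytes and resident microglia leave their resting state, matrix and clotting proteins are laid down, and neurons and oligodendrocytes around the lesion are lost or silenced. The day after the injury lies within this acute inflammatory phase. In a piece of whole cord, fewer cells of a type and less RNA per cell cannot be told apart, and this holds for each cell type named here.

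The values are log2 levels of 23188 transcripts from Clariom S arrays, of which 15190 carry a gene name. Array medians lay between 5.43 and 5.47 in SCI/TMX+ rats and between 5.44 and 5.47 in Sham/TMX+ rats, and any 2 of the 12 arrays correlated between 0.967 and 0.993. Defining genes of the cord were high on all 12 arrays: Snap25 of synapses lay between 11.59 and 11.75 in SCI/TMX+ rats and between 11.96 and 12.09 in Sham/TMX+ rats, Mbp of myelin between 12.34 and 12.54 in SCI/TMX+ rats and between 12.37 and 12.57 in Sham/TMX+ rats, and Gfap of astrocytes between 11.25 and 11.41 in SCI/TMX+ rats and between 11.07 and 11.42 in Sham/TMX+ rats. The difference of a transcript is given as the log2 fold change (log2FC, SCI/TMX+ minus Sham/TMX+), and a transcript was called where this was beyond 1 in either direction and the Benjamini-Hochberg adjusted p of limma was under 0.05. Where genes of a list are said to have risen or fallen, the adjusted p alone was under 0.05.

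Contusion under TMX changed the level of 706 transcripts by these limits, 3.04% of all tested, of which 448 were higher (1.93%) and 258 were lower (1.11%). Of the 15190 named transcripts, 421 were called higher (2.77%) and 229 lower (1.51%). Rises were larger than falls: the median log2FC was 1.41 among the transcripts called higher and -1.15 among those called lower, with 98 transcripts beyond 2 against 6 beyond -2. All 706 transcripts beyond 1 passed the adjusted p, so that the size limit set the call. By the adjusted p alone 7897 transcripts passed (34.1%), and the order of the counts turned, since 3318 transcripts rose (14.3%) and 4579 fell (19.7%), and 4321 of those that fell did so by 1 or less. The median over all transcripts was -0.02. In 691 of the 706 called transcripts the 6 SCI/TMX+ and 6 Sham/TMX+ rats did not overlap, with 435 above (9.16% of all transcripts did so) and 256 below (11.7% of all). Over all transcripts 20.9% did not overlap, and the median standard error of a log2FC was 0.11. SCI/TMX+ rats differed more among themselves than sham rats did: the median SD was 0.184 in SCI/TMX+ and 0.156 in Sham/TMX+, and 14521 transcripts (62.6%) had the higher SD in SCI/TMX+.

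The 2 groups separated on the first principal component, which carried 57.6% of the variance. SCI/TMX+ rats scored between 28.3 and 36.4 and Sham/TMX+ rats between -34.9 and -28.2, a difference in means of 64.8 (exact permutation test, two-sided, p = 0.00216, the smallest that 924 divisions of 6 and 6 arrays can give). Component 2 (7.49%) set 1 injured animal apart, rat 11b, at 34.6, while the other 5 SCI/TMX+ rats scored between -11.2 and 1.94 and the Sham/TMX+ rats between -8.37 and 6.39. Component 3 (4.98%) spread the injured rats again, with 10b at -23.5 and 7b at 14.1. Without rat 11b, 748 transcripts were called in place of 706.

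**Figure D1:**
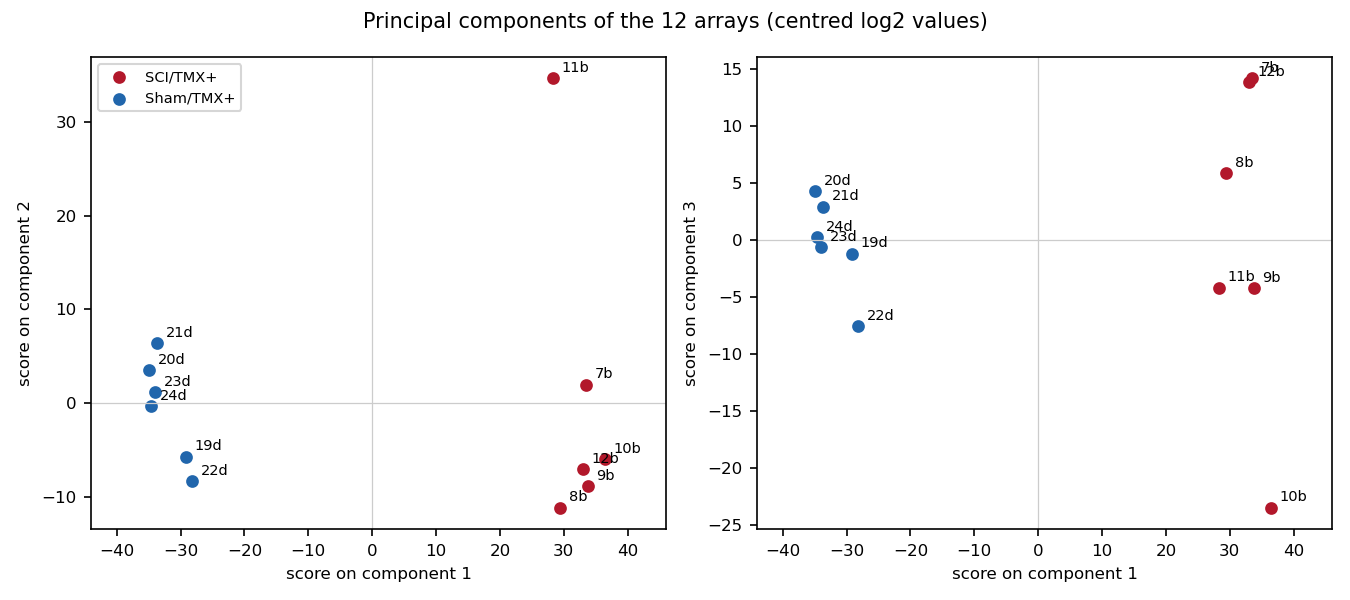
Scores of the 12 arrays on component 1 (horizontal) against component 2 (left panel) and component 3 (right panel), 1 point per rat, SCI/TMX+ in red and Sham/TMX+ in blue. The groups lie on opposite sides of component 1, and rat 11b stands at 34.6 on component 2, above the other 11 rats.

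Among the genes that rose the most were Lcn2, Ccl2, Serpina3n and Timp1, along with globin genes that are given further on. Levels of a gene are given as the lowest, the median and the highest of the 6 rats of a group. Lcn2, a secreted protein that binds iron-carrying siderophores, stood at 9.61, 10.66 and 11.01 in SCI/TMX+ rats, against 4.70, 4.96 and 5.96 in Sham/TMX+ rats. Its log2FC of 5.40 ± 0.26 (SE; adjusted p = 4.07e-14), or 42.1-fold, was the highest of the named transcripts. Ccl2, the chemokine that draws monocytes through the receptor Ccr2, stood at 9.43, 10.04 and 10.44 in SCI/TMX+ rats, against 4.12, 4.61 and 4.91 in Sham/TMX+ rats (log2FC 5.37 ± 0.16, adjusted p = 1.97e-18). The genes at either end of the ranking were picked among called transcripts without overlap between the groups. In Lcn2 and Ccl2 every injured rat therefore lay above every sham rat. The gap between the groups was wider than the range within either, which the choice did not require. Serpina3n, a serine protease inhibitor of reactive astrocytes, rose by a log2FC of 4.46 ± 0.18, and Timp1, which blocks metalloproteinases of the matrix, by 4.24 ± 0.12. Timp1 had the smallest adjusted p of all transcripts (1.57e-18): its 6 SCI/TMX+ rats lay between 9.98 and 10.24, and its 6 Sham/TMX+ rats between 5.65 and 6.28.

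At the other end, 1 transcript known by a locus symbol alone was at -3.01, followed by Slco1c1 and Slitrk6. Slco1c1, a carrier of thyroid hormone in brain endothelium and astrocytes, stood at 5.01, 5.79 and 6.35 in SCI/TMX+ rats, against 8.22, 8.36 and 8.67 in Sham/TMX+ rats (log2FC -2.69 ± 0.17, adjusted p = 1.04e-11). Slitrk6, a membrane protein of the nervous system with leucine-rich repeats, stood at 5.88, 6.26 and 6.93 in SCI/TMX+ rats, against 8.39, 8.90 and 9.24 in Sham/TMX+ rats (log2FC -2.55 ± 0.17). The highest injured rat stayed below the lowest sham rat in both, as the choice of genes at either end required. Lcat, which esterifies cholesterol on lipoproteins, fell by 2.26 on the log2 scale, Itm2a, a membrane protein of endothelium, by 2.29, and Gjc3, a connexin of myelinating cells, by 2.09. In Lcat and Gjc3, rat 11b was the injured rat nearest to the sham level, at 7.29 for Lcat and at 7.12 for Gjc3. Dbp, a transcription factor driven by the circadian clock, fell by 1.93, and Elovl6, which lengthens fatty acids, by 1.88.

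**Figure D2:**
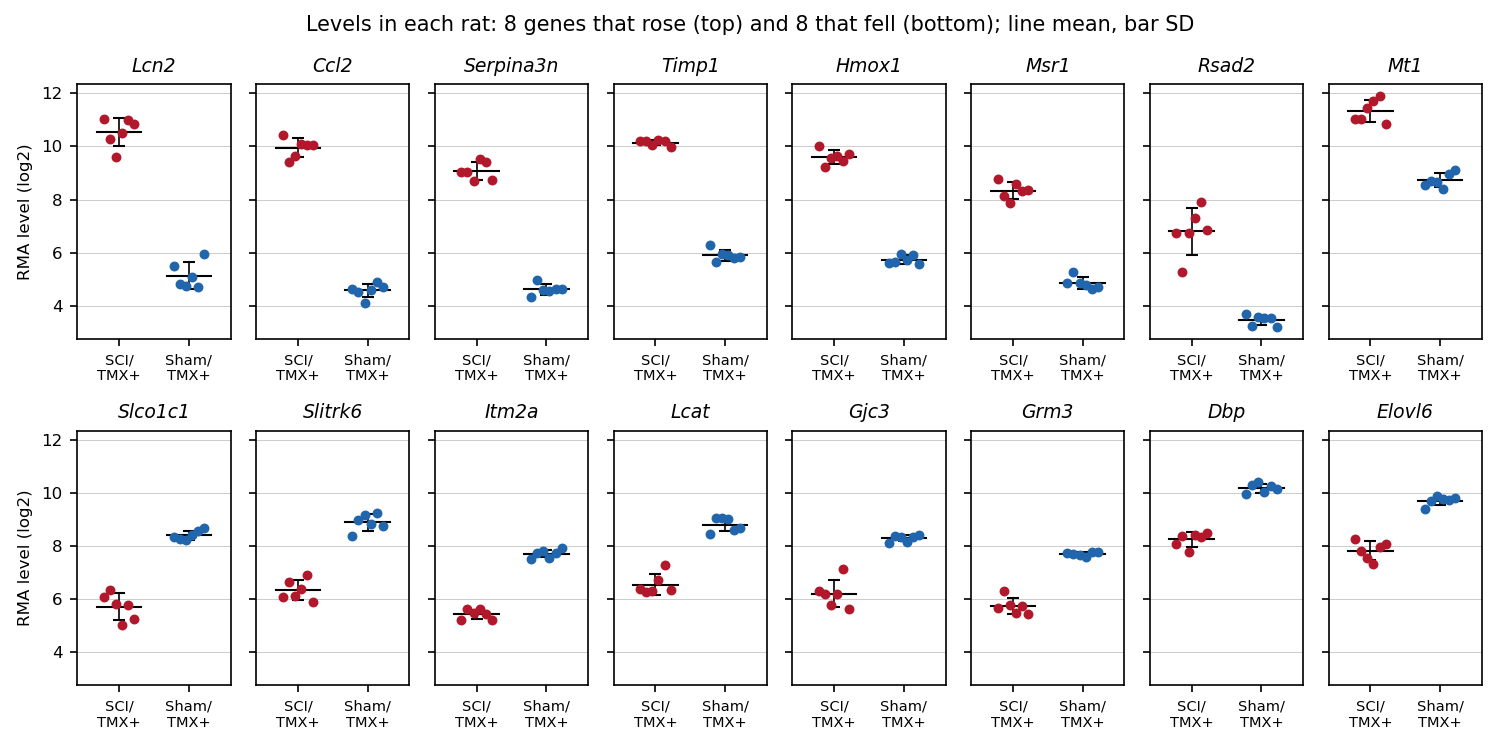
Log2 level of 16 genes in each rat, 8 that rose (top row) and 8 that fell (bottom row). In each panel SCI/TMX+ (red) stands left of Sham/TMX+ (blue), with 1 point per rat. A line marks the mean and a bar 1 SD. In none of the 16 genes do the 2 groups overlap, which was a condition for genes chosen from either end of the ranking.

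The promoters of 4 genes that rose are printed because each carries a motif tied to one of the responses described further on. The windows run from 250 bases before to 50 bases after the RefSeq start site in the build GRCr8, written 5′ to 3′ on the strand of the gene, and capitals mark the match. In the Lcn2 window (chr3:36081731-36082030, minus strand) the capitals are 1 NF-kB motif that begins 242 bases before the start. In the Ccl7 window (chr10:67513845-67514144, plus strand) they are 1 AP-1 motif that begins 73 bases before the start, and the window also holds 1 NF-kB match. In the Rsad2 window (chr6:48788071-48788370, minus strand) they are 1 interferon-stimulated response element (ISRE) that begins 147 bases before the start. In the Mt1 window (chr19:10832926-10833225, minus strand) they are 3 matches to 1 form of the metal response element (MRE), TGCACNC. These begin 176, 151 and 69 bases before the start. Other forms of the element were neither searched nor marked.
Lcn2: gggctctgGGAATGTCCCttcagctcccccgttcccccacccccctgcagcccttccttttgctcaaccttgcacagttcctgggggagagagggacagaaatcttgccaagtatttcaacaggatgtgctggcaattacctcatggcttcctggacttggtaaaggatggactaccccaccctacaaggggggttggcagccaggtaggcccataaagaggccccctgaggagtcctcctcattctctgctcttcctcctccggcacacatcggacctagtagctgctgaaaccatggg
Ccl7: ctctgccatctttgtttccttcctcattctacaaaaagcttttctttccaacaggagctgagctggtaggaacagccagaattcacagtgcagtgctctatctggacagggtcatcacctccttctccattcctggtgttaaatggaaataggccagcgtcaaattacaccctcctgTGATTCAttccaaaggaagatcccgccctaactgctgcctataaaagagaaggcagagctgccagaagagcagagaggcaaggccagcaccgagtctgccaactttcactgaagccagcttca
Rsad2: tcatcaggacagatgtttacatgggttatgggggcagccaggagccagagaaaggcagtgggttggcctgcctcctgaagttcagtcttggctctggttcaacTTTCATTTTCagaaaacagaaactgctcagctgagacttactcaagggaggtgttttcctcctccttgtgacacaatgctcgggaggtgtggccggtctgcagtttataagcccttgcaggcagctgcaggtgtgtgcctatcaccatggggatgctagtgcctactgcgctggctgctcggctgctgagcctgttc
Mt1: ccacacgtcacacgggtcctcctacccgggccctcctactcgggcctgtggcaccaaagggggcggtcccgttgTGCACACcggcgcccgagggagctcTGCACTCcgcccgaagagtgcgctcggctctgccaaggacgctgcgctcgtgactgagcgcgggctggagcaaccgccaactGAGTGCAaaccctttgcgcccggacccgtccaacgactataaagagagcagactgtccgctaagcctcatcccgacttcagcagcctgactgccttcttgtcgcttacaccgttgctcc

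Both strands were searched for 6 motifs, namely AP-1 (TGANTCA), NF-kB by its decamer consensus, ISRE (GAAANNGAAA), MRE (TGCACNC), the heat shock element (HSE, GAANNTTCNNGAA) and the estrogen response element (ERE, GGTCANNNTGACC). None of the printed matches overlaps a match of another of these motifs. Windows were matched by Entrez gene ID, which not every named transcript carries: 358 genes called higher and 195 called lower had such an ID, and 278 and 156 of these had a RefSeq window. The NF-kB motif was in 15.83% of the windows of genes called higher, 9.62% of those called lower and 7.6% of all 27457 windows. AP-1 was in 12.95% of windows called higher, 7.69% of those called lower and 7.33% of all windows, and ISRE in 9.35%, 3.21% and 3.77% of these sets in the same order. The lists differed in their motifs: ISRE was in 13 of 21 windows of interferon-stimulated genes. MRE was in 5 of 8 of metallothionein and zinc transporter genes against 12.17% of all windows. HSE was in 4 of 12 of heat shock chaperones against 0.74% of all windows, and AP-1 in 7 of 12 of plasminogen and coagulation genes. Other lists also had high shares, with MRE in 5 of 12 windows of barrier genes and 5 of 13 of glutamate genes. ISRE was in 3 of 7 windows of red cell genes. MRE was in 11.51% of windows called higher, 13.46% of those called lower and 13.15% of windows of measured genes. In windows of measured genes NF-kB was in 8.82%, AP-1 in 6.39% and ISRE in 3.39%. ERE was in 0 of 278 windows called higher, 0 of 156 called lower and 7 of all windows. These shares describe letters in short windows and were not tested.

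Genes were grouped in 54 lists of cell types and responses, which share some members. Of all transcripts, 14.3% rose and 19.7% fell, 1.93% were called higher and 1.11% lower, and each list is read beside these shares. The lists and their members were chosen with earlier results of these data known, so these shares give context and do not test a list. The lists with the highest medians were those of reactive astrocytes, monocytes and macrophages, immediate early genes and interferon-stimulated genes. Those with the lowest were resting microglia, oligodendrocytes and myelin, astrocyte homeostasis, and the receptors and transporters for glutamate, GABA and glycine.

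**Figure D3:**
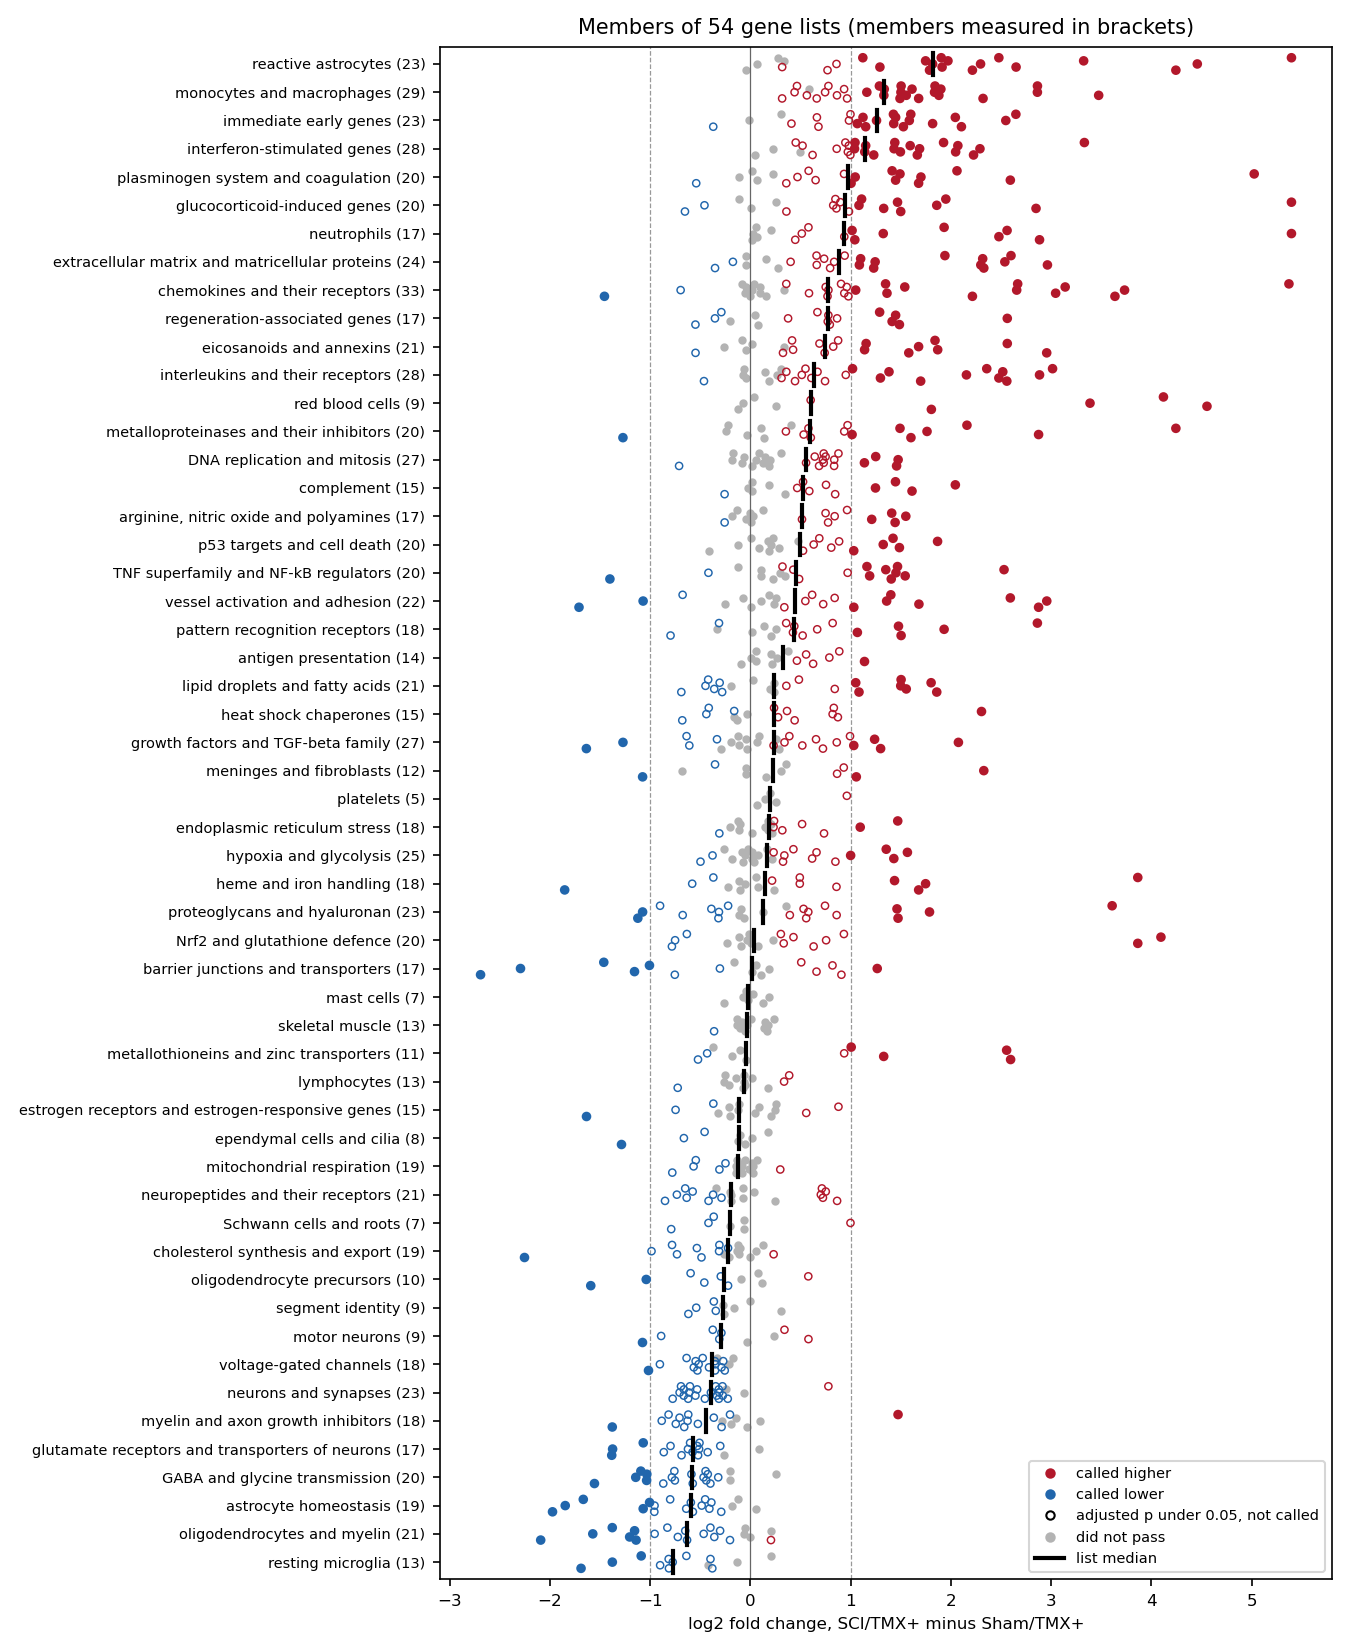
Log2FC (horizontal, SCI/TMX+ minus Sham/TMX+) of each measured member of 54 lists, ordered by the list median (black bar). Filled points were called, open points passed the adjusted p alone, grey points did not pass, and dashed lines mark 1 and -1. The median was 1.82 for reactive astrocytes at the top and -0.77 for resting microglia at the bottom.

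Chemokines recruit leukocytes along gradients, each through a small set of receptors. Of 33 chemokines and receptors measured, 21 rose and 2 fell, with 12 called higher and 1 lower. Beside Ccl2, the monocyte chemokine Ccl7 stood at 6.72, 7.86 and 8.26 in SCI/TMX+ rats, against 3.43, 3.95 and 4.77 in Sham/TMX+ rats (log2FC 3.64 ± 0.21), and Ccl3, which attracts several kinds of leukocyte, rose by 3.05 ± 0.15. The neutrophil attractants Cxcl1 and Cxcl2 rose by 1.54 and 2.67. Cxcl11 and Cxcl10, which interferon induces and which draw activated T cells, rose by 3.73 and 2.21. Cxcl11 was highest in rat 11b, at 7.75, while the other 5 SCI/TMX+ rats lay between 5.70 and 6.93 and Sham/TMX+ rats between 2.35 and 3.44. Among receptors, Ccr1 rose by 2.66 and Cxcr2, the neutrophil receptor, by 0.94. Ccr2, the receptor of Ccl2 on inflammatory monocytes, stood at 4.95, 5.46 and 5.76 in SCI/TMX+ rats, against 4.20, 4.69 and 4.77 in Sham/TMX+ rats, and its log2FC of 0.78 ± 0.25 (adjusted p = 0.0186) stayed under the limit of 1. Cx3cl1, the chemokine of neurons that holds microglia in check, fell by 0.70, and Ackr4, a scavenger receptor of chemokines, by 1.46.

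Interleukins and their receptors followed, with 20 of 28 members that rose and 1 that fell. The cytokines of the gp130 family were among the largest: Il11 rose by 2.52 ± 0.16, Il6 by 2.56 ± 0.27 and Lif by 2.16, together with Osmr, the receptor subunit of oncostatin M, by 2.48. Csf2rb, the common receptor subunit for granulocyte-macrophage colony-stimulating factor and related cytokines, rose by 3.01 ± 0.14, with 7.20, 7.39 and 7.57 in SCI/TMX+ rats, against 3.94, 4.31 and 4.77 in Sham/TMX+ rats. Of the interleukin 1 system, the agonist Il1b rose by 1.02, while both brakes rose by more, the decoy receptor Il1r2 by 2.88 and the antagonist Il1rn by 2.36. Among 20 genes of the TNF superfamily and of NF-kB regulation, 12 rose and 2 fell. Tnfrsf12a, the receptor of TWEAK, rose by 2.53, Nfkbia, which holds NF-kB in the cytoplasm and is itself an NF-kB target, by 1.47, and the adaptor Myd88 by 1.54. Tnf itself had a log2FC of 0.23 (adjusted p = 0.237), and Tnfsf10, the death ligand TRAIL, fell by 1.40.

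Genes of monocytes and macrophages rose in nearly every case, as 28 of 29 rose, 0 fell and 18 were called higher, with a median log2FC of 1.34. Msr1, the scavenger receptor of macrophages, stood at 7.86, 8.33 and 8.77 in SCI/TMX+ rats, against 4.62, 4.84 and 5.28 in Sham/TMX+ rats (log2FC 3.47 ± 0.17). Cd14, the co-receptor for bacterial lipopolysaccharide, rose by 2.86 ± 0.16 and Plac8, expressed in blood monocytes, by 2.86 ± 0.14. The exception was Folr2, a marker of resident macrophages, at 0.59 (adjusted p = 0.118). Of 17 neutrophil genes, 12 rose and 0 fell. Their mean level lay between 4.97 and 5.22 in SCI/TMX+ rats and between 3.73 and 3.94 in Sham/TMX+ rats. With transcripts of low signal left out, 1 rose. Lcn2, which neutrophils store in granules, had the largest rise of the list. The calprotectin subunits S100a9 and S100a8 rose by 2.56 and 2.48 and the decoy receptor Il1r2 by 2.88. The granule genes Ngp and Camp had log2FC of 0.20 and 0.06 and the formyl peptide receptor Fpr1 0.02, none of which passed. Mmp8, the neutrophil collagenase, rose by 1.01, between 4.52 and 5.06 in SCI/TMX+ rats and between 3.31 and 4.05 in Sham/TMX+ rats.

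Resident microglial genes moved the other way. Of 13 genes of resting microglia, 0 rose and 10 fell, with a median of -0.77. Gpr34, a receptor of microglia for lysophosphatidylserine, stood at 4.57, 4.89 and 5.05 in SCI/TMX+ rats, against 6.31, 6.57 and 6.84 in Sham/TMX+ rats (log2FC -1.69 ± 0.14). Selplg, which encodes the P-selectin ligand, fell by 1.38, P2ry12, the purine receptor of microglial processes, by 0.77 and Tmem119 by 0.81, and none of these 4 genes overlapped between the groups. Complement, which tags debris and synapses for removal, rose in 9 of 15 genes and fell in 1, led by Cd55 (2.04), a brake on the cascade, and by C1qb (1.45) and C1qc (1.25), subunits of its first component. The gene that fell, Cd59b, was at -0.26 and no longer passed in 10 of the 12 fits without 1 rat, those without 7b or 22d being the exceptions. Of 18 pattern recognition receptors, 11 rose and 2 fell. Clec7a, the receptor for fungal glucans, rose by 1.50 and Tlr1 by 1.48, while Tlr3, a sensor of double-stranded RNA, fell by 0.80 and Trem2, a lipid receptor of microglia, by 0.31. A single gene fell without any one of the rats 10b, 11b, 20d, 22d, 23d or 24d.

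Lymphocyte genes were dim on average and showed little change. Their mean level lay between 3.42 and 3.51 in SCI/TMX+ rats and between 3.47 and 3.60 in Sham/TMX+ rats, where folds are compressed. With transcripts of low signal left out, 0 rose. Of 13 measured, 2 rose, 1 fell and 0 were called: Lck, a kinase of T cells, had a log2FC of 0.39 (adjusted p = 0.0303), Cd2 of 0.34 and the T cell receptor chain Cd3d of 0.17, which did not pass. The adjusted p of Lck was above 0.05 without any one of the rats 11b, 12b, 22d, 23d or 24d, with values between 0.0588 and 0.1. Cd4, which in rats is also carried by microglia and macrophages, fell by 0.72 ± 0.20, with 5.92, 6.33 and 6.74 in SCI/TMX+ rats, against 6.77, 6.98 and 7.37 in Sham/TMX+ rats. The number that fell was 2 without 11b or without 19d. Mast cell genes numbered 7, and 0 rose or fell. The mean level of this list was low as well, between 3.32 and 3.55 in SCI/TMX+ rats and between 3.32 and 3.54 in Sham/TMX+ rats. Without rat 8b the mast cell tryptase Tpsab1 passed, at -0.39 (adjusted p = 0.0124), against -0.26 with all rats (adjusted p = 0.161).

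The 2 astrocyte lists gave a divided picture, with genes of reactive astrocytes up and genes of their resting duties down. Reactive genes are not all particular to astrocytes, as Lcn2 also stands in the neutrophil list. Which cells carried the rise was not tested. Of 23 reactive astrocyte genes, 19 rose, 0 fell and 16 were called higher, with a median of 1.82. Hspb1, a small heat shock protein, stood at 9.96, 10.21 and 10.33 in SCI/TMX+ rats, against 7.61, 7.90 and 7.97 in Sham/TMX+ rats (log2FC 2.30 ± 0.10). Socs3, the feedback inhibitor of cytokine signalling, rose by 3.32, the membrane protein Emp1 by 2.65, and the intermediate filament genes Nes and Vim by 1.97 and 1.12. Gfap, the filament protein most used to mark reactive astrocytes, had a log2FC of 0.06 (adjusted p = 0.595), at 11.25, 11.35 and 11.41 in SCI/TMX+ rats, against 11.07, 11.30 and 11.42 in Sham/TMX+ rats, so that its groups overlapped. Of 19 genes of astrocyte homeostasis, 0 rose, 16 fell and 5 were called lower. Grm3, the metabotropic glutamate receptor of astrocytes, stood at 5.44, 5.71 and 6.29 in SCI/TMX+ rats, against 7.60, 7.72 and 7.79 in Sham/TMX+ rats (log2FC -1.97 ± 0.12). The tight junction protein Cldn10 fell by 1.85, and 2 connexins, Gjb6 and Gja1, through which astrocytes are coupled, fell by 1.67 and 0.96. The water channel Aqp4 fell by 0.80, while Slc1a2, the main glutamate transporter, had a log2FC of -0.18 (adjusted p = 0.0502).

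Interferon-stimulated genes, which cells switch on through interferon receptors or cytosolic sensors of nucleic acid, rose in 25 of 28 cases, with 17 called higher and 0 that fell. Rsad2, the antiviral enzyme viperin, stood at 5.28, 6.79 and 7.90 in SCI/TMX+ rats, against 3.20, 3.55 and 3.68 in Sham/TMX+ rats (log2FC 3.33 ± 0.27), Gbp2, a guanylate-binding protein, rose by 2.29 ± 0.16 and Isg15, a ubiquitin-like modifier, by 2.07 ± 0.19. The height of this response differed between injured animals. The mean level over the 28 genes was 6.58 in rat 11b and 6.21 in rat 10b and lay between 5.71 and 6.03 in the other 4 SCI/TMX+ rats, against 4.63 to 4.88 in Sham/TMX+ rats. Without rat 11b, 25 genes rose and the median was 1.03, against 1.15 with all rats. Of 14 genes of antigen presentation, 6 rose and 0 fell. The class II chaperone genes RT1-DMa and RT1-DMb rose by 1.14 and 0.89 and B2m, the light chain of class I molecules, by 0.46. RT1 genes have near-identical copies whose probes may not be told apart.

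**Figure D4:**
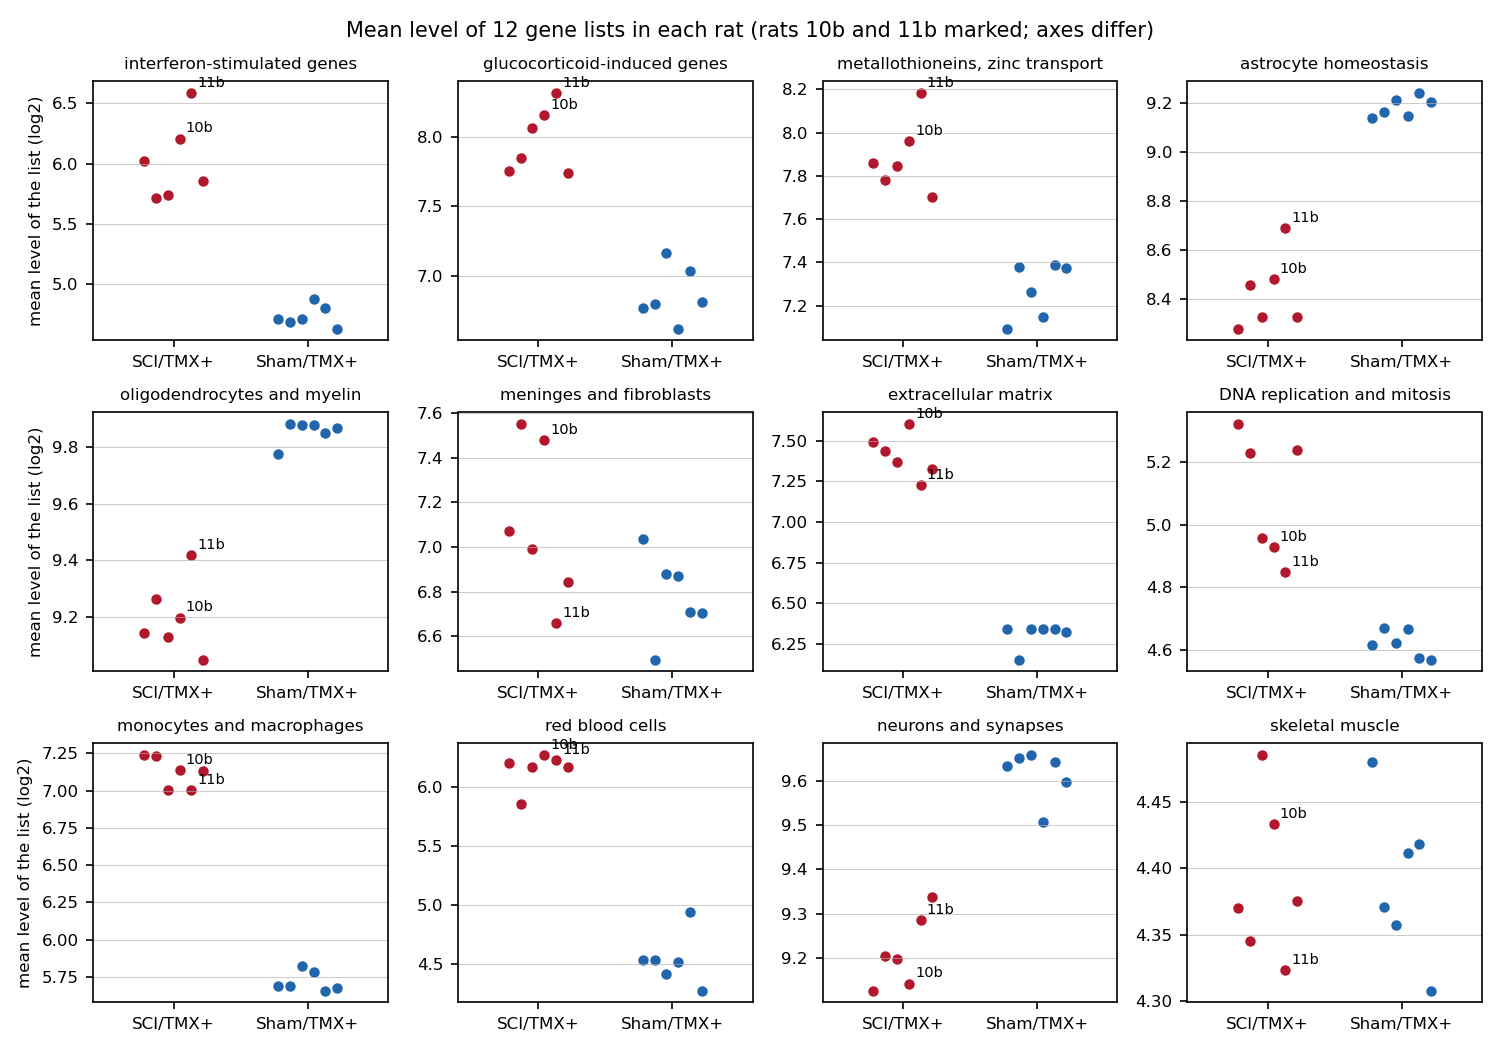
Mean log2 level over the measured members of 12 lists in each rat, SCI/TMX+ (red) left of Sham/TMX+ (blue), 1 point per rat and each panel on its own axis. Rat 11b is the highest SCI/TMX+ rat for interferon-stimulated genes (6.58) and the lowest for genes of meninges and fibroblasts (6.66), and the skeletal muscle panel shows overlapping groups.

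Rat 11b, which stood apart on component 2, differed from the mean of the other 5 injured rats in several lists. Its mean level was higher by 0.68 for interferon-stimulated genes, 0.40 for genes induced by glucocorticoids and 0.32 for astrocyte homeostasis, and lower by 0.53 for meninges and fibroblasts and by 0.29 for DNA replication. Among these lists, the difference was wider than the range of the other 5 rats for interferon-stimulated genes (range 0.50) and for astrocyte homeostasis (range 0.20). Rat 11b was also higher by more than that range for metallothioneins and zinc transporters (0.35, range 0.26) and for oligodendrocytes and myelin (0.26, range 0.21). The same held for arginine and nitric oxide (0.21, range 0.16), Nrf2 and glutathione (0.21, range 0.15) and pattern recognition receptors (0.15, range 0.08). Differences were smaller, yet beyond the range, for p53 targets and mitochondrial respiration. For meninges and fibroblasts rat 8b was the highest, at 7.55, followed by rat 10b, at 7.48, which lay 0.45 above the mean of the other 5.

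Clotting and plasminogen genes rose in 15 of 20 cases and fell in 1. The protein C receptor Procr rose by 2.59 ± 0.14, the plasmin receptor subunits S100a10 and Anxa2 by 1.70 ± 0.08 and 1.68 ± 0.09, tissue factor F3 by 1.05 and the urokinase receptor Plaur by 1.41. Of 20 metalloproteinases and inhibitors, 13 rose and 1 fell. Adamts1, which cleaves proteoglycans, rose by 2.87 ± 0.15, Adamts9 by 1.76 and stromelysin Mmp3 by 2.16. Timp4 fell by 1.27, in contrast to Timp1, and a second gene fell without 7b or without 12b. Mmp9, the gelatinase of neutrophils, rose by 0.58 (adjusted p = 0.00206). Mmp12, the elastase of macrophages, had a log2FC of 0.41 (adjusted p = 0.0537, and between 0.0188 and 0.0394 without any one of the rats 8b, 11b or 19d). The adjusted p of Mmp12 was also under 0.05 with another moderation of the variance (0.0467) and with array medians subtracted (0.0495). The same held with array weights (0.032), the 12 arrays alone (0.048) and 1 transcript per gene (0.0497). Mmp12 did not pass with the replicate block or with quantile normalization once more.

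Of 24 genes of the extracellular matrix and its associated proteins, 18 rose, 2 fell and 11 were called higher. Lox, which cross-links collagen, stood at 7.64, 7.97 and 8.45 in SCI/TMX+ rats, against 4.96, 5.41 and 5.77 in Sham/TMX+ rats (log2FC 2.60 ± 0.17). The thrombospondins Thbs1 and Thbs2 rose by 2.96 and 2.32, tenascin Tnc by 2.54 and fibronectin Fn1 by 1.94. The fibrillar collagens did not share this rise: Col1a1 had a log2FC of -0.04 and Col3a1 of 0.15, neither of which passed, and Col1a2 fell by 0.35. The other gene that fell was Sparc, at -0.17. Of these, 1 fell without any one of the rats 7b, 11b, 12b, 20d, 22d, 23d or 24d, and 0 fell without 9b or without 21d. Proteoglycans and hyaluronan proteins split, with 10 of 23 that rose and 8 that fell. Tnfaip6, which modifies hyaluronan in inflamed tissue, rose by 3.61 ± 0.16, the hyaluronan receptor Cd44 by 1.79 and neurocan (Ncan), an inhibitor of axon growth in scars, by 1.47, whereas brevican (Bcan) fell by 1.12 and lumican (Lum) by 1.07. The number that fell was 5 without 7b or without 24d.

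Vessel genes moved in both directions. Of 22 activation and adhesion genes, 12 rose and 3 fell, led by Esm1, a proteoglycan of sprouting endothelium, with 6.75, 6.96 and 7.60 in SCI/TMX+ rats, against 3.71, 4.17 and 4.43 in Sham/TMX+ rats (log2FC 2.96 ± 0.16). Angpt2, which loosens vessels, rose by 1.03, and Angpt1, which steadies them, fell by 1.07. Of 17 barrier genes, 5 rose and 7 fell. The endothelial adhesion molecule Pecam1 rose by 1.27, and Cldn5, the main claudin of the barrier, had a log2FC of -0.16 (adjusted p = 0.35). The transporters Slc22a8 and Abcb1a fell by 1.46 and 1.16, the junction protein Ocln by 1.01, and Slco1c1 and Itm2a are given above.

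Of 9 red cell genes, 5 rose, 0 fell and 4 did not pass. The globin genes Hbb-b1, Hbb and Hba-a1 rose by 4.55, 4.12 and 3.39 and Alas2, the heme synthesis enzyme of red cells, by 1.81. Globin genes are near-identical copies whose probes may share signal. In Hba-a1 the SCI/TMX+ rats stood at 11.80, 12.08 and 12.19 and the Sham/TMX+ rats at 7.79, 8.53 and 10.11, the highest sham value being that of rat 23d, with the next at 8.69. The mean level of the 9 genes lay between 5.86 and 6.27 in SCI/TMX+ rats, against 4.27 to 4.94 in Sham/TMX+ rats. The platelet chemokine Pf4 rose by 0.96, 1 of 5 platelet genes to pass, and Ppbp, at 0.26, passed as well without rat 7b. Circulating cells carry neutrophil and monocyte genes too, and their part in the rises of those lists was not tested. Of 18 genes of heme and iron handling, 8 rose and 3 fell. Hmox1, which breaks heme down, stood at 9.23, 9.61 and 10.01 in SCI/TMX+ rats, against 5.58, 5.68 and 5.96 in Sham/TMX+ rats (log2FC 3.86 ± 0.14, adjusted p = 2.67e-16). Cd163, the scavenger receptor for hemoglobin, rose by 1.68, and Slc40a1, ferroportin, the exporter of iron, fell by 1.85, with 4.01, 4.30 and 4.59 in SCI/TMX+ rats, against 5.93, 6.12 and 6.56 in Sham/TMX+ rats.

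Metallothioneins, small proteins that bind zinc and copper, rose with the exception of the neuronal Mt3, at -0.18. Mt1 stood at 10.86, 11.25 and 11.90 in SCI/TMX+ rats, against 8.41, 8.68 and 9.11 in Sham/TMX+ rats (log2FC 2.60 ± 0.19), and its near-copy Mt1a and Mt2A rose by 2.56 and 1.33. Of 11 genes of this list, 5 rose and 2 fell. Targets of the stress factor Nrf2 and of glutathione defence split, with 8 of 20 that rose and 3 that fell: Gpx2, a glutathione peroxidase, rose by 4.10 ± 0.19 and thioredoxin reductase Txnrd1 by 0.93, while catalase (Cat) fell by 0.75 and the secreted Gpx3 by 0.78.

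Immediate early genes, the transcription factors and phosphatases that answer a stimulus first, rose in 20 of 23 cases and fell in 1. The gene that fell, the nuclear receptor Nr4a3, was at -0.37, and 0 fell without any one of the rats 7b, 8b, 10b, 12b, 20d, 21d, 23d or 24d. Myc stood at 7.65, 7.91 and 8.27 in SCI/TMX+ rats, against 5.08, 5.27 and 5.52 in Sham/TMX+ rats (log2FC 2.65 ± 0.13). The AP-1 members Fosl1, Junb, Fos and Jun rose by 2.55, 2.11, 2.04 and 1.43, and the phosphatase Dusp6 by 1.82, while Nr4a1, a relative of Nr4a3, had a log2FC of -0.02. Of 17 genes known to rise in regenerating neurons, 11 rose and 3 fell, among them Atf3 (1.45), Gap43 (0.78) and Sox11 (0.77). Atf3, Gadd45a and Anxa1 are expressed by glia and leukocytes as well. Heat shock chaperones were mixed, with 8 of 15 that rose and 4 that fell, the small chaperones Hspb1 and Hspb8 (0.83) up and the large Hspa4l and Hsph1 down by 0.68 and 0.44. Of 18 genes of endoplasmic reticulum stress, 7 rose and 1 fell, with Ppp1r15a at 1.47, Atf4 at 1.10 and Ddit3 at 0.73. The number that rose was 4 without any one of the rats 7b, 19d or 23d, and 2 fell without 8b. Of 20 p53 targets and cell death genes, 10 rose and 0 fell, led by the cell cycle inhibitor Cdkn1a at 1.87 and by Gadd45a at 1.49. The licensing factors Mcm6 and Mcm3 rose by 1.47 and 1.46 among 27 genes of DNA replication and mitosis, of which 14 rose and 1, Aurkb, fell by 0.71.

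Neuronal genes fell broadly and by little. Of 23 genes of neurons and synapses, 1 rose and 20 fell, with a median of -0.39 and 0 called. Nefl, the light neurofilament subunit, stood at 9.52, 9.66 and 9.80 in SCI/TMX+ rats, against 10.15, 10.28 and 10.51 in Sham/TMX+ rats (log2FC -0.66 ± 0.09), and the synaptic vesicle protein Sv2b fell by 0.77. The gene that rose was Gap43, a growth cone protein. The mean level of the list lay between 9.13 and 9.34 in SCI/TMX+ rats and between 9.51 and 9.66 in Sham/TMX+ rats, without overlap.

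The medians were lower among transmitter receptors, at -0.58 for both transmitter lists. Of 17 genes of glutamate transmission, 0 rose, 15 fell and 3 were called lower: the AMPA receptor subunit Gria3 stood at 7.25, 7.44 and 7.86 in SCI/TMX+ rats, against 8.59, 8.95 and 9.12 in Sham/TMX+ rats (log2FC -1.38 ± 0.11), and the NMDA receptor subunits Grin2b and Grin3a fell by 1.37 and 1.07. Of 20 genes of GABA and glycine transmission, 0 rose, 17 fell and 5 were called lower. Gabrb1, a subunit of the GABA-A receptor, stood at 5.96, 6.41 and 6.61 in SCI/TMX+ rats, against 7.61, 7.92 and 8.07 in Sham/TMX+ rats (log2FC -1.55 ± 0.10), the subunits Gabra2 and Gabra3 fell by 1.09 and 1.03 and the glycine receptor subunit Glra2 by 1.14. The enzymes that make GABA moved less, Gad1 falling by 0.47 and Gad2 being at -0.21, which did not pass. Of 18 voltage-gated channels, 0 rose and 15 fell, with the sodium channel Scn1a at -1.02, the potassium channels Kcna2 at -0.90 and Kcnd2 at -0.64.

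Among motor neuron genes those of acetylcholine handling fell, the choline transporter Slc5a7 fell by 1.08, the vesicular transporter Slc18a3 by 0.89 and the synthesis enzyme Chat by 0.37. Of the 9 genes, 2 rose and 5 fell, and 3 fell without any one of the rats 7b, 8b, 10b, 11b, 21d, 22d or 23d. The 2 that rose were Mmp9 (0.58) and Isl2 (0.34), and 1 rose without any one of 8b, 9b, 11b, 19d, 20d, 21d, 22d or 24d. Of 21 neuropeptides and receptors, 5 rose and 8 fell, a count of 5 without any one of the rats 7b, 10b, 20d, 21d or 23d. The peptides galanin (Gal), dynorphin (Pdyn), substance P (Tac1), Crh and Npy rose by 0.70 to 0.87, while the opioid receptor Oprm1 fell by 0.85 and somatostatin (Sst) by 0.65.

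Oligodendrocyte genes fell in 16 of 21 cases and rose in 1, with 6 called lower and a median of -0.63. The gene that rose, the myelin transcription factor Myrf, was at 0.21, and 0 rose without any one of the rats 8b, 10b, 11b, 19d, 20d, 21d, 23d or 24d. Ugt8, which makes the myelin lipid galactosylceramide, stood at 8.42, 8.91 and 8.98 in SCI/TMX+ rats, against 10.26, 10.39 and 10.49 in Sham/TMX+ rats (log2FC -1.57 ± 0.10). Gpr37, a receptor of maturing oligodendrocytes, fell by 1.20, Ermn, a cytoskeletal protein of myelin, by 1.15 and Omg by 1.38. Mbp, one of the most abundant myelin transcripts, had a log2FC of -0.06 (adjusted p = 0.544). Of 10 precursor genes, 1 rose and 6 fell: Gpr17, a receptor of cells about to mature, fell by 1.59 ± 0.11, tenascin-R (Tnr) by 1.04, and versican (Vcan) rose by 0.58, while Pdgfra, the growth factor receptor of precursors, was at 0.07. Of 18 inhibitors of axon growth and their receptors, 12 fell, Lingo1 by 0.71 among them, and 1, Ncan, rose.

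Cholesterol, of which myelin holds much, is made locally in the cord. Of 19 genes of its synthesis and export, 1 rose and 9 fell. The isomerase Ebp, to which TMX is known to bind, stood at 6.87, 7.02 and 7.20 in SCI/TMX+ rats, against 7.67, 7.78 and 7.95 in Sham/TMX+ rats (log2FC -0.78 ± 0.09, adjusted p = 2.7e-07). Lss, the cyclase that makes lanosterol, fell by 0.73, with overlapping groups. The exporter Abcg1 fell by 0.99 and Lcat by 2.26, and Sqle, the rate-setting squalene epoxidase, rose by 0.23, which did not pass without 7b, 12b, 19d or 23d.

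Genes of glycolysis and hypoxia rose in 11 of 25 cases and fell in 2, with lactate dehydrogenase Ldha at 1.57, hexokinase Hk2 at 1.43 and Pfkfb3 at 1.00. Of 19 mitochondrial genes, 1 rose and 5 fell, among them Ppargc1a, the regulator of mitochondrial growth, by 0.78 and Ndufs1, a subunit of complex I, by 0.57. Of 21 genes of lipid storage and fatty acids, 10 rose and 6 fell, with the lipid droplet proteins Plin2 and Hilpda at 1.80 and 1.50. Prostaglandin and annexin genes rose in 15 of 21 cases and fell in 1: Ptges stood at 6.98, 7.23 and 7.54 in SCI/TMX+ rats, against 5.33, 5.39 and 5.54 in Sham/TMX+ rats (log2FC 1.84 ± 0.11), Ptgs2, the inducible cyclooxygenase, rose by 1.87 and its constitutive relative Ptgs1 fell by 0.55. In arginine, nitric oxide and polyamine metabolism 9 of 17 genes rose and 1 fell, with ornithine decarboxylase Odc1 at 1.41, the tetrahydrobiopterin enzyme Gch1 at 1.44 and the inducible synthase Nos2 at 1.55.

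Genes that glucocorticoids induce rose in 15 of 20 cases and fell in 2, with Cebpd, an acute-phase transcription factor, at 2.85 ± 0.12 and Fkbp5, a chaperone of steroid receptors, at 1.95 ± 0.17. The receptor gene Nr3c1 fell by 0.65, and Tsc22d3, another classical target, by 0.46. The receptors on which TMX acts did not pass the test. Esr1 stood at 3.76, 3.91 and 4.07 in SCI/TMX+ rats, against 3.93, 4.14 and 4.32 in Sham/TMX+ rats (log2FC -0.22, adjusted p = 0.0978), and the log2FC was 0.24 for Esr2 (adjusted p = 0.261) and -0.20 for Gper1 (adjusted p = 0.353). In all 3 the groups overlapped. Of 15 receptors and genes known to answer estrogen, 2 rose and 3 fell, and Igf1, a growth factor, fell by 1.64 ± 0.16, with 5.30, 5.79 and 6.25 in SCI/TMX+ rats, against 7.20, 7.28 and 8.00 in Sham/TMX+ rats. Of 27 growth factors and members of the TGF-beta family, 12 rose and 5 fell, with the EGF receptor ligand Hbegf at 2.08 ± 0.12, Igfbp3 at 1.30 and Bmp4 at -1.27.

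Tissues beside the cord left smaller differences. Of 13 skeletal muscle genes, 0 rose and 1, the troponin Tnnc2, fell by 0.36, and the mean level of the list lay between 4.32 and 4.49 in SCI/TMX+ rats and between 4.31 and 4.48 in Sham/TMX+ rats. Of 12 genes of meninges and fibroblasts, 4 rose and 2 fell, with mean levels between 6.66 and 7.55 in SCI/TMX+ rats and between 6.50 and 7.03 in Sham/TMX+ rats, which overlapped. Mgp, an inhibitor of mineral deposits, rose by 2.33 and dermatopontin (Dpt) by 1.06, while Lum fell by 1.07 and Col1a2 by 0.35, the second of which did not pass without 9b, 11b or 21d. Of 7 Schwann cell genes, Egr2, which glia and leukocytes also use, rose by 1.00, and 3 fell, among them Cdh19 by 0.79 and the myelin protein Pmp22 by 0.37. A single gene fell without any one of the rats 11b, 12b, 21d or 24d. The adjusted p of Pmp22 was between 0.0525 and 0.0702 without any one of the rats 9b, 11b, 12b, 21d or 24d. Of 8 ependymal and ciliary genes, 3 fell, led by the dynein Dnah5 at -1.29. The Hox genes, which mark the level of the cord, showed 4 of 9 that fell and 0 that rose, Hoxa7 by 0.62, Hoxb5 by 0.54 and Hoxc8 by 0.34. In the fit without rat 21d 1 Hox gene rose.

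The same question was asked of the vehicle-treated animals to see where the response with TMX differed from that without. The 2 comparisons share no array. Without TMX, 708 transcripts were called (3.05%), 459 higher (1.98%) and 249 lower (1.07%). Of these, 522 were also called with TMX, 73.9% of the 706 and 73.7% of the 708, and all 522 moved the same way. Over all transcripts the 2 log2FC correlated at r = 0.895. This correlation is across genes, which are not independent replicates. The 184 transcripts called with TMX alone (76 higher, 108 lower) had the same sign without it, and 169 of them also passed the adjusted p there. Their median size was 1.10 with TMX and 0.849 without. Of the 186 called without TMX alone, all had the same sign with TMX and 179 passed the adjusted p, with a median size of 0.864 with TMX and 1.08 without.

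**Figure D5:**
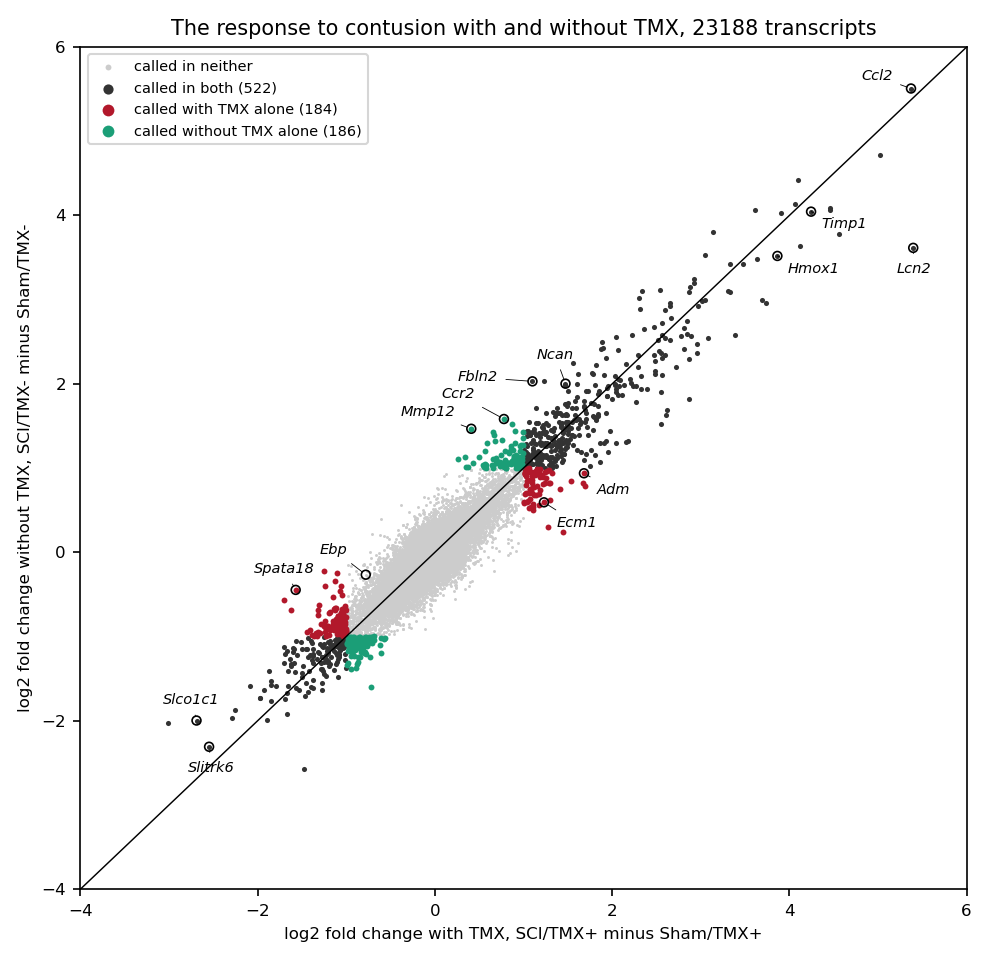
Log2FC of 23188 transcripts with TMX (horizontal, SCI/TMX+ minus Sham/TMX+) against that without TMX (vertical, SCI/TMX- minus Sham/TMX-), with the line of equality. Black points were called in both (522), red with TMX alone (184) and green without TMX alone (186), and 14 genes named in the text are circled.

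The difference between the 2 responses was tested as an interaction, and by limma 0 of 23188 transcripts passed an adjusted p of 0.05, while 1585 (6.84%) had an unadjusted p under 0.05. The values of the genes nearest to the limit are given as they stand. Spata18, a gene of mitochondrial quality control, had the smallest interaction p of all transcripts. Spata18 stood at 2.74, 2.80 and 3.08 in SCI/TMX+ rats, against 3.86, 4.50 and 4.65 in Sham/TMX+ rats, without overlap. Its log2FC was -1.57 with TMX and -0.45 without (interaction -1.12, adjusted p = 0.229). Without rat 21d its adjusted p was 0.0133, the one interaction to pass when single rats were left out. Lcn2 rose by 5.40 with TMX and 3.61 without (interaction 1.78, adjusted p = 0.314). By an unadjusted p, the study reported Lcn2 lower and Spata18 higher in Sham/TMX+ than in Sham/TMX- rats. An interaction holds such differences between the sham groups as well as those between the injured groups. The vasodilator peptide adrenomedullin (Adm) rose by 1.68 with TMX and 0.94 without (interaction 0.74, adjusted p = 0.314). Ecm1, a matrix protein, rose by 1.23 with TMX and 0.59 without. Values were lower with TMX for Fbln2, a matrix protein of basement membranes, at 1.10 with TMX and 2.03 without (interaction -0.93, adjusted p = 0.292), and for Mmp12, at 0.41 with TMX and 1.47 without (interaction -1.06, adjusted p = 0.327). Mmp12 stood at 3.32, 3.79 and 4.36 in SCI/TMX+ rats, against 3.08, 3.39 and 3.64 in Sham/TMX+ rats, with overlap. Ccr2 was at 0.78 with TMX and 1.58 without (interaction -0.80, adjusted p = 0.708).

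Other named transcripts with a small interaction p changed by less than 1 with TMX. Agmat, an agmatinase, Galnt18, a glycosyltransferase, Fam53a and the stress factor Atf5 had log2FC of 0.39, 0.24, 0.45 and 0.23 with TMX and of -0.40, -0.43, -0.13 and -0.32 without. Npy2r, a receptor of neuropeptide Y, Tafazzin, which remodels cardiolipin, the actin-capping Tmod4 and the small GTPase Rab7b were at -0.23, -0.46, -0.72 and -0.58 with TMX and at 0.43, 0.08, -0.06 and 0.19 without. Thy1, a surface protein of neurons, fell by 0.31 with TMX and by 0.72 without. For Atf5 the adjusted p with TMX (0.0475) was above 0.05 without any one of 10 of the 12 rats, at up to 0.119, and 0.0692 with the replicate number as a block. Galnt18 passed the adjusted p with TMX without 7b or 9b, and Npy2r without 20d.

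Across the lists, the counts with an unadjusted interaction p under 0.05 were highest for genes induced by glucocorticoids (8 of 20), then for cholesterol (7 of 19) and for monocytes and macrophages (7 of 29), beside 6.84% of all transcripts, and 4 of 10 genes of oligodendrocyte precursors had such a p. Glucocorticoid-induced genes had a median log2FC of 0.94 with TMX and 0.54 without. Fkbp5 rose by 1.95 with TMX and 1.19 without (interaction adjusted p = 0.56), and Zbtb16, Hif3a and Pla2g3 were at 0.86, 0.85 and 0.83 with TMX and at 0.23, -0.01 and -0.04 without. In cholesterol synthesis, Ebp fell by 0.78 with TMX and 0.27 without (interaction -0.51, adjusted p = 0.432) and Lss fell by 0.73 with TMX and was at -0.14 without, and 9 genes fell with TMX against 5 without. Among genes of neurons and synapses the median was -0.39 with TMX and -0.51 without, among GABA and glycine genes -0.58 with TMX and -0.73 without, and among monocyte and macrophage genes 1.34 with TMX and 1.44 without. No member of these lists passed the adjusted interaction test, and the list medians were not tested. Without the SCI/TMX- rats 13c and 15c, which were left out to see their weight, 712 transcripts were called without TMX and 511 in both.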

How the data were processed

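RNA of 22 spinal cords was hybridised to Clariom S rat arrays, 1 array per rat. The authors summarised the scans with RMA in oligo 1.56, and the deposited values are log2 levels, background-corrected and quantile-normalized over all arrays by that method. They tested with a linear model and empirical Bayes in limma 3.48.3. The genome build behind the array design is not given in the sources used here. RMA draws all arrays to 1 distribution, so that a shift of all transcripts together would not be seen, and folds of dim transcripts are compressed.

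In limma 3.58.1 (R 4.3.3), the means of 4 groups were fitted over all 22 arrays and contrasts were tested by eBayes with Benjamini-Hochberg adjustment over 23188 transcripts. No low values were filtered. Of these transcripts, 15049 were named by the platform annotation, 141 by tables of the study and 7998 stayed unnamed. Values identical to those of another transcript were found for 443. The number of arrays limits the precision.

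Named genes were the 15 highest and 15 lowest log2FC among called, named transcripts with no overlap between groups, up to 3 members per list by the moderated t, the 8 smallest interaction p per direction, and Esr1, Esr2, Gper1, Lcn2, Ccr2 and Mmp12, 180 transcripts in all, of which 5 with locus symbols are not named and 1 gene is not reported here. Other list members are named to show the range of a list and were chosen after their values were seen. The members and lists were chosen with earlier results of these data known. Of 1077 list entries, 976 matched a transcript, and some members stand in several lists. Of 178 named symbols, 124 had a RefSeq promoter in GRCr8.

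On simulated data for the comparison of SCI/TMX+ with Sham/TMX+, 23188 transcripts were drawn, 50 of them changed per size. Of these, 0% were called at a log2 change of 0.7, 52% at 1, 100% at 1.5 and 100% at 2, and 0 unchanged transcripts were called. Since a call needs a log2FC beyond 1, these shares largely follow from that limit and do not measure the test alone. The simulated noise was normal and independent between transcripts. Alternatives were another moderation of the variance, a filter on low signal, other scalings, array weights, the 12 arrays alone, a replicate block, 1 transcript per gene, other limits and each rat left out in turn. Replicate numbers follow the order of the rats within each group. Same-numbered rats of the 2 groups deviated together with r between -0.0513 and 0.108, so the numbers were not taken as pairs. Each array is a separate rat by the labels.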

Additional observations from a re-analysis of the deposited data

Results flagged for a closer look

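In each group of 6 rats, the highest or lowest rat was set apart where its gap to the nearest other rat exceeded the critical share of the group's range in Dixon's test. This held in 27 of 360 groups examined (7.5%), and chance alone sets apart about 1 in 20. Rat 22d was set apart 5 times, rats 10b, 19d and 23d 4 times each, 8b 3 times, and rat 11b, which stood out on component 2, once. The causes were not tested.

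Among SCI/TMX+ rats, 8b was low for the globins Hbb (9.84, next 10.50) and Hba-a3 (8.66, next 9.22) and high for Atf5 (7.16, next 7.00). Rat 10b was high for the hemoglobin receptor Cd163 (7.12, next 6.54), for Ecm1 (6.01, next 5.61) and for Spata18 (3.08, next 2.86), and low for the nuclear receptor Esrrg (5.58, next 5.87). Single values stood apart for Tac1 in 12b (6.84, next 6.56), Clec1b in 9b (2.82, next 2.42), Tmod4 in 7b (4.57, next 4.35) and Ppargc1a in 11b (7.49, next 7.31), each on the high side.

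Among Sham/TMX+ rats, 23d was high for Hbb-b1 (6.03, next 4.59) and Sat1 (7.23, next 6.80) and low for Tnnc2 (6.00, next 6.19) and for 1 transcript known by a locus symbol alone (3.33, next 3.98). Rat 19d was low for Cd14 (4.51, next 5.16), Hspb1 (7.61, next 7.87) and Elovl6 (9.39, next 9.70) and high for Hoxb5 (7.65, next 7.37). Rat 22d was high for Mcm6 (4.34, next 4.11) and Igf1 (8.00, next 7.43) and low for Ppargc1a (7.81, next 8.09), the opioid receptor Oprm1 (5.99, next 6.41) and the dynein Dnai1 (4.03, next 4.42). Rat 20d was low for Ccr2 (4.20, next 4.63), and 21d was high for Npy2r (4.83, next 4.44) and low for Spata18 (3.86, next 4.39).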

How the results depend on the processing

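No named gene changed the sign of its log2FC under any alternative run. The size limit of 1 set the count of calls and the order of its parts: without it 7897 transcripts passed, and more were lower than higher (3318 higher, 4579 lower), where the calls held 448 higher and 258 lower. At an unadjusted p under 0.05 beyond 0.7 there were 1799 (927 higher, 872 lower), and a test against a log2 fold of 0.5 called 416 lower in place of 258. With the replicate number as a block 706 transcripts were called, the same 706, and of the named genes Atf5 no longer passed. Both groups hold the same replicate numbers, so the block leaves each log2FC as it was. Since the size limit set the calls, the equal count was close to fixed in advance. Leaving out 1 rat gave 685 to 748 calls, 581 of the 706 (82.3%) being called in each of the 12 fits. In the interaction, 67 transcripts had an unadjusted p under 0.05 beyond 0.7, and 0 to 1 passed the adjusted p when 1 rat was left out, the 1 being Spata18 without Sham/TMX+ rat 21d. Of the values of single named genes under the alternatives, 3655 kept their side of the threshold, 60 lost it and 15 gained it. Of the list counts, 2028 stayed within 1.5 times and 132 did not, many of them under the filter on low signal, which tests 11594 transcripts and so leaves 1 of 17 neutrophil genes that rose in place of 12. Transcripts near the floor of the arrays have compressed folds. Leaving out 13c and 15c, and 11b in the lists, was chosen after seeing the data.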
